A study of Mus musculus with 16 samples.

Results

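The 9 genes described here encode factors and regulators of the complement system: C1ra, C1s1 and C4b of the classical pathway, C3 at the centre of the cascade, Cfb and Cfd of the alternative pathway, C7 of the terminal complex, and the regulators Serping1 and Cd55. They were chosen by symbol, and all 9 were found among the 31055 features of 16 droplet-based single-cell libraries, each made from the thoracic aorta of a mouse between the root and the arch. Molecules were counted by their unique molecular identifiers (UMIs), and the UMIs of each gene were summed per library over 4 sets of cells. Vascular smooth muscle cells (VSMCs) had at least 5 UMIs of Myh11, a smooth muscle myosin, and more of it than of Dcn, a proteoglycan of fibroblasts. Fibroblasts had at least 5 UMIs of Dcn and more of it than of Myh11. Endothelium had at least 2 UMIs of Pecam1 and Cdh5 together, and leukocytes at least 2 of Ptprc and Tyrobp together. Levels are given as CPM, the usual scaling of a gene's UMIs by the UMIs of all genes in the same sum.

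All mice were of the strain 129S6/SvEv and carried Myh11-CreER, a Cre recombinase that is driven by a smooth muscle promoter and becomes active with tamoxifen. The controls, labelled Smad3+/+, carried the Cre and received tamoxifen as well. In mice labelled Smad3SmKO both Smad3 alleles were flanked by lox sites, so that the deletion was aimed at VSMCs and the Smad3 of fibroblasts, endothelium and leukocytes was not its target. Aortas were taken 10 weeks after deletion from 2 Smad3+/+ and 2 Smad3SmKO mice, and 18 weeks after deletion from 5 Smad3+/+ and 7 Smad3SmKO mice. The labels give a Myh11-GFP tracer to both Smad3+/+ mice of 10 weeks and, at 18 weeks, to every mouse digested for 60 min (Smad3+/+ replicates 4 and 5, Smad3SmKO replicates 5 to 7), and to no other. The GFP counts went against that label in 4 libraries. The Smad3SmKO libraries of 10 weeks, labelled without a tracer, held 247 and 188 UMIs of GFP over all barcodes, beside 316 and 233 in Smad3+/+. Smad3+/+ 18 weeks replicates 4 and 5, labelled with it, held 3 and 9, 0 of them in VSMCs, beside 84 to 374 in the Smad3SmKO libraries of 60 min. Digestion time and the tracer label therefore cannot be told apart at 18 weeks, and the 30 min libraries alone, which leave out both of the latter, gave 0 members called for genotype in each of the 4 cell types, as all libraries did. Without the 2 Smad3SmKO libraries no genotype comparison is left at 10 weeks. The labels gave a digestion of 30 min for batches 1 to 3 and of 60 min for batches 4 to 6, batch 4 held every 10-week library and no other, and batch 5 held Smad3SmKO libraries only. Replicate numbers below only name libraries.

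Complement is a set of plasma proteins, cell surface receptors and inhibitors that tags surfaces for uptake and can lyse cells. In the classical pathway the proteases C1r and C1s are bound to C1q, and C1r activates C1s. C1s cleaves C4 and C2, whose fragments together form an enzyme that cleaves C3. The alternative pathway amplifies C3 cleavage through factor B and factor D, and the late components, C7 among them, assemble into a pore. The liver makes most circulating complement, and stromal cells, macrophages and fat also make several of its components.

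The deposited matrices held 66349 barcodes and 508775009 UMIs, between 12539539 and 52843031 per library. Limits on genes, UMIs and mitochondrial share left 50858 cells, 8950 of them VSMCs (22 to 1706 per library), 36066 fibroblasts (196 to 5505), 3303 endothelium and 3357 leukocytes. The 4 sets overlapped: 54.9% of the endothelium and 9.38% of the leukocytes also met the fibroblast rule, so levels in cells that met exactly 1 rule are given beside the first ones (8648 VSMCs, 33954 fibroblasts, 1226 endothelium, 2946 leukocytes). Smad3SmKO 18 weeks replicate 7 had 3 such endothelial cells and was left out there, which leaves 15 libraries for endothelium. The summed level of the marker list of each type was highest in its own set: 40538 to 83656 CPM for 8 VSMC markers in VSMCs, 9665 to 23299 for 8 fibroblast markers in fibroblasts, 13473 to 25541 for 8 endothelial markers in endothelium meeting exactly 1 rule, and 18967 to 51002 for 8 leukocyte markers in leukocytes. Across libraries, 315 of 50541 distinct barcodes occurred more than once (0.623%). Smad3 RNA in VSMCs was 7.44 ± 2.79 CPM (SD, n = 5) in Smad3+/+ and 9.32 ± 4.37 CPM (n = 7) in Smad3SmKO libraries at 18 weeks. The log2 difference from a fit with batch as a term, to which the batch without controls adds nothing, was 0.04 (SE 0.38). At 10 weeks the log2 difference was 0.45 (SE 0.38), and neither passed the test, with an adjusted p of 1 by edgeR's quasi-likelihood test. Which exons the counted Smad3 molecules came from was not analysed here, and a separate feature named Sm3_intact held 0 UMIs in all 16 libraries, so neither checks the deletion.

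The 9 genes lie on 6 mouse chromosomes (GRCm38, GENCODE vM21). C1ra (chr6:124512405-124523443, plus strand) and C1s1 (chr6:124530345-124542359, minus strand) are neighbours, 6901 bases apart. C4b (chr17:34728380-34743882, minus) and Cfb (chr17:34856374-34862518, minus) lie 112491 bases from each other, and C3 (chr17:57203970-57228136, minus) is on the same chromosome. The others are Serping1 (chr2:84765387-84775444, minus), Cd55 (chr1:130439027-130462744, minus), C7 (chr15:4988762-5063740, minus) and Cfd (chr10:79890853-79892655, plus). C1ra, C1s1, C4b and Cd55 each have a close relative in the mouse genome (C1rb, C1s2, C4a and Cd55b), and how the counting divided reads between them was not tested, so these 4 values are uncertain to that extent.

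RefSeq (GRCm38.p6) gave a start site and its upstream 250 bases for 6 of the 9 genes. Of these, 3 are shown because their genes turn up in the results below. C3 is the central factor. Among members with enough counts to test, C1s1 differed most between VSMC subsets and Cd55 most between fibroblast subsets. The 3 windows are printed 5′ to 3′ on the strand of the gene, and end at the base before the start site. Capitals mark matches on either strand to TTGCNNAA, a core of the C/EBP site, or to CAGAC, a Smad-binding element. The C3 window is chr17:57228137-57228386, that of C1s1 chr6:124542360-124542609 and that of Cd55 chr1:130462745-130462994, all minus strand.
C3: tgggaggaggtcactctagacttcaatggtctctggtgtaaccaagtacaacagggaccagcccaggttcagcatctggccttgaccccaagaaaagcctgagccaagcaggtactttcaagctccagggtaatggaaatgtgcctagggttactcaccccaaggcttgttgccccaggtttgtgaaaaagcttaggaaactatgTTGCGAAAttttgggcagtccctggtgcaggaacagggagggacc
C1s1: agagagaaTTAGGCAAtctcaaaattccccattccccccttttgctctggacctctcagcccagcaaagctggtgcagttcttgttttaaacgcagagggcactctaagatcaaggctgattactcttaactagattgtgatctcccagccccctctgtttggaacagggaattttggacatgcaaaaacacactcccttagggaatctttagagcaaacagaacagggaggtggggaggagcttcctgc
Cd55: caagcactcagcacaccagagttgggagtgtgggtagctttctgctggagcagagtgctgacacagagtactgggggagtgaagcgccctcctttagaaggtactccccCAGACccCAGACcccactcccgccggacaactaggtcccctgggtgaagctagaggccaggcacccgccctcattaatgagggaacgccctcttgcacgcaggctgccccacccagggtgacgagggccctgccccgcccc
The C3 and C1s1 windows held 1 C/EBP match each and no CAGAC, and the Cd55 window held CAGAC 2 times and no C/EBP match. A second start site of C1s1 in RefSeq, chr6:124542322-124542571 for its window, held neither. Among 32851 RefSeq promoter windows of this length, 9.56% held the C/EBP letters and 42.2% held CAGAC, so both are common. A match describes letters and is no evidence of binding.

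Fibroblasts held the most of nearly every one of these RNAs. C3, C7, C1ra, Cfb and Serping1 were highest in fibroblasts in 15 of 15 libraries with all 4 types, counting cells that met exactly 1 rule. C1s1 was highest in fibroblasts in 14 of 15, Cd55 in 13 and C4b in 12. The exceptions were VSMCs for C1s1 in 1 library, endothelium for Cd55 in 2 and leukocytes for C4b in 3. Cfd had no such order, with endothelium highest in 8 libraries, fibroblasts in 6 and leukocytes in 1.

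**Figure D1:**
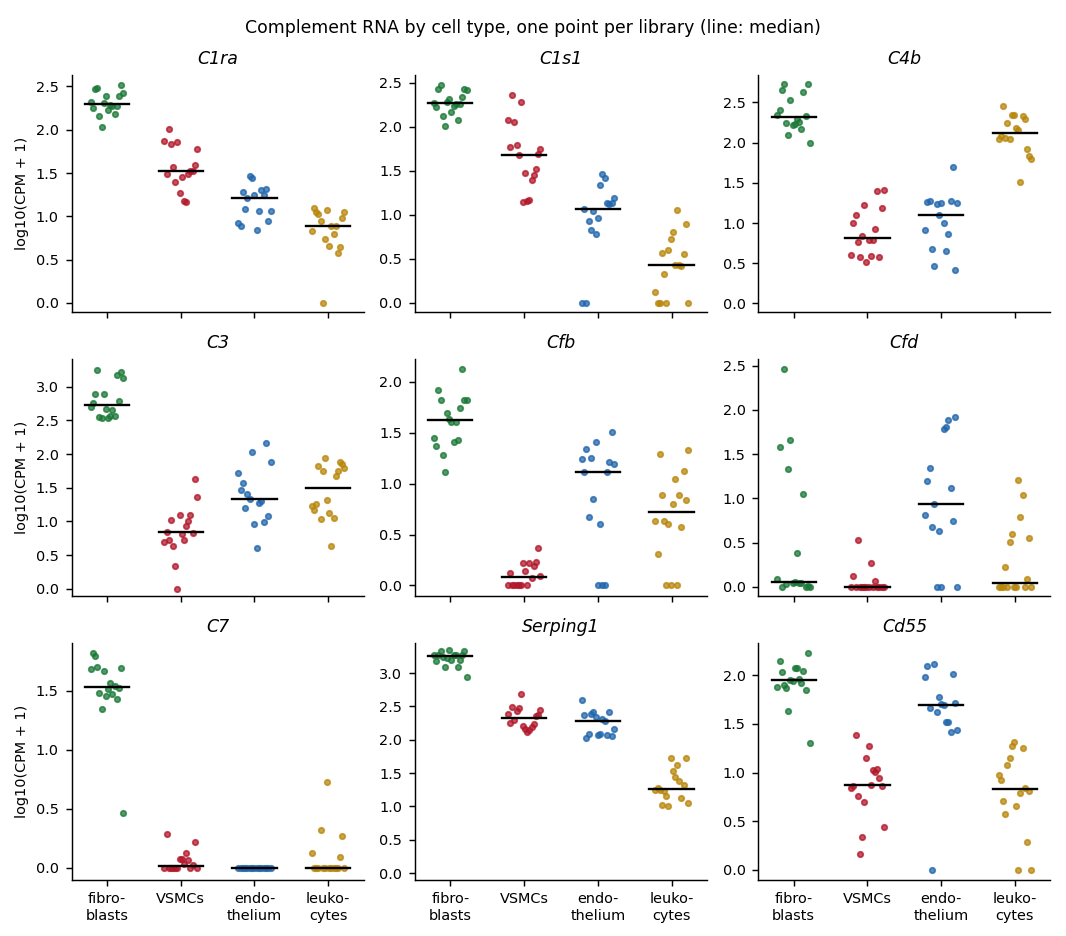
Level of each of the 9 genes in 4 cell types, 1 panel per gene, as log10(CPM + 1) of UMIs summed per library over cells that met exactly 1 rule. Each point is a library and each line the median of a type: the fibroblast points lie above the VSMC points in all 15 libraries for C3, C4b, C7, C1ra, Cfb, Serping1 and Cd55, while C4b in leukocytes reaches the range of the fibroblasts.

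Of the classical pathway, C1r and C1s are serine proteases that activate in sequence. C1ra in fibroblasts was 207 ± 59.4 CPM (SD, n = 16 libraries), with a lowest value of 103, a median of 189 and a highest of 314. In VSMCs C1ra was 40.4 ± 23.9 CPM (n = 16), from 13.6 through a median of 31.2 to 98.9. The ranges did not overlap for C1ra.

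C1s1 in fibroblasts was 186.9 ± 55.0 CPM (n = 16), with a lowest value of 97.4, a median of 175 and a highest of 278. In VSMCs C1s1 was 63.8 ± 60.1 CPM, from 13.1 through a median of 45.2 to 222. The ranges of C1s1 overlapped. VSMCs of the 7 libraries digested for 30 min had a median of 104 CPM, above the lowest fibroblast value. Among them Smad3+/+ 18 weeks replicate 3 and Smad3SmKO 18 weeks replicate 4 stood at 222 and 171 CPM. In endothelium and leukocytes meeting exactly 1 rule, C1ra was 14.7 ± 6.96 (n = 15) and 6.69 ± 3.34 CPM (n = 16), and C1s1 was 11.6 ± 8.21 and 2.59 ± 2.89 CPM.

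C4b, the classical substrate of C1s, was 260 ± 140 CPM in fibroblasts, with 95.3, 202 and 518 as the lowest, median and highest of 16 libraries. Leukocytes came next with 152 ± 67.8 CPM (42.2, 142 and 270), and 144 ± 70.3 CPM in those meeting exactly 1 rule. VSMCs held 9.72 ± 7.78 CPM and endothelium meeting exactly 1 rule 13.1 ± 11.7 CPM. Fibroblasts and leukocytes overlapped for C4b over most of their ranges, and the other types lay below all fibroblast values.

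C3, on whose cleavage the pathways converge, was 739 ± 479 CPM in fibroblasts (n = 16), with a lowest value of 319, a median of 525 and a highest of 1666. VSMCs held 9.68 ± 9.96 CPM of C3, from 0 to 39.4, and the highest VSMC value lay below the lowest fibroblast value. Endothelium and leukocytes meeting exactly 1 rule held 37.8 ± 40.4 (n = 15) and 38.5 ± 28.1 CPM (n = 16).

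Cfb, the protease of the alternative C3 convertase, was 46.6 ± 28.7 CPM in fibroblasts, from 11.8 through 41.2 to 124. In VSMCs Cfb had 44 UMIs in all, a mean of 0.327 CPM. Endothelium meeting exactly 1 rule had 11.8 ± 9.65 CPM (n = 15), reaching 31.4, and leukocytes 6.20 ± 6.22 CPM (n = 16), reaching 20.3. Both ranges overlapped that of fibroblasts, while the VSMC values did not.

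Cfd, also called adipsin, cleaves factor B and is made in quantity by adipocytes. Its fibroblast median was 0.118 CPM against a highest value of 257, and it stood above 5 CPM in 5 of 16 libraries. Of 11591 Cfd UMIs in kept cells, 11224 (96.8%) lay in 15 cells with at least 100 UMIs of it each (114 to 2451), found in 6 libraries. These cells were picked after their values were seen, and 14 of them held Adipoq, 14 Plin1 and 15 Cidec, which are adipocyte genes. Of the 15, 5 met the fibroblast rule, 0 met the VSMC rule and 10 met none.

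C7, which joins the nascent pore to the membrane, was 35.9 ± 15.3 CPM in fibroblasts (n = 16), with a lowest value of 1.89, a median of 32.6 and a highest of 61.9. In VSMCs C7 had 14 UMIs in all. In endothelium meeting exactly 1 rule it had 0 of 8605110 UMIs, which allows up to 0.349 CPM at 3 counts over all libraries, so that the pooled fibroblast level of 38.9 CPM was at least 112-fold higher. Leukocytes meeting exactly 1 rule held 8 UMIs of C7. Such limits cover counting error only.

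Serping1, which encodes C1 inhibitor, the plasma inhibitor of C1r and C1s, had the smallest spread between fibroblast libraries, with a highest-to-lowest ratio of 2.50. Fibroblasts held 1666 ± 353 CPM (n = 16; 859, 1770 and 2151 as lowest, median and highest). VSMCs held 221 ± 81.3 CPM (133, 203 and 434), endothelium meeting exactly 1 rule 189 ± 81.2 CPM (n = 15) and leukocytes meeting exactly 1 rule 23.2 ± 14.3 CPM. Every fibroblast value lay above every value of these other sets.

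Cd55, a surface protein that speeds the decay of C3 convertases, was 93.5 ± 36.0 CPM in fibroblasts (18.9, 89.0 and 169). Endothelium was close to it, with 97.7 ± 52.0 CPM by the rule and 57.1 ± 38.1 CPM (n = 15; 0, 47.9 and 130) in cells meeting exactly 1 rule. VSMCs held 8.01 ± 5.91 CPM (0.450, 6.66 and 22.6) and leukocytes meeting exactly 1 rule 7.64 ± 6.35 CPM. VSMC values reached into the lower end of the fibroblast range only at the fibroblasts of Smad3SmKO 18 weeks replicate 7.

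The differences between types were tested within libraries with edgeR's quasi-likelihood test, with Benjamini-Hochberg adjustment over all genes tested. Against VSMCs, 9 of 9 members were higher in fibroblasts, where 37.5% of 12059 genes were; in cells meeting exactly 1 rule it was again 9 of 9, where 39.1% of 11149 genes were. The log2 differences were 7.37 (SE 0.29) for C7, 6.62 (SE 0.23) for Cfb, 6.04 (SE 0.28) for C3 and 4.68 (SE 0.27) for C4b. They were 3.38 (SE 0.20) for Cd55, 2.89 (SE 0.20) for Serping1, 2.51 (SE 0.16) for C1ra and 1.92 (SE 0.25) for C1s1. Cfd was higher by 4.70 (SE 1.22, adjusted p = 7.03e-04), but its fibroblast level lay above that of VSMCs in only 12 of 16 libraries. Of its 4873 fibroblast UMIs, 4791 lay in 5 of the high-Cfd cells described above, so its call describes few cells. The median over the members was 4.68, against 0.04 over all genes tested.

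Against leukocytes, 8 of 9 members were higher in fibroblasts, where 41.9% of all genes were, and the same count held in cells meeting exactly 1 rule, where 39.3% were. There the log2 differences ran from 6.27 (SE 0.26) for C7, 6.19 (SE 0.40) for C1s1 and 6.01 (SE 0.24) for Serping1 to 2.76 (SE 0.21) for Cfb. C4b differed least, at 0.50 (SE 0.22, adjusted p = 0.0403 by edgeR's quasi-likelihood test). By the rule its difference was 0.50 (adjusted p = 0.0362), a call that did not pass with DESeq2 (0.47), without the low-count filter (0.47) or in Smad3+/+ libraries alone (0.23). The C4b call was also lost when any one of 10 libraries was left out, with values of 0.41 to 0.49: replicates 1, 2, 3 and 5 of Smad3+/+ and 1, 5 and 6 of Smad3SmKO at 18 weeks, and replicate 2 of Smad3+/+ and both of Smad3SmKO at 10 weeks. Cfd did not pass, at 2.31 (SE 1.21, adjusted p = 0.0783) and, by the rule, 2.58 (adjusted p = 0.0510 by edgeR's quasi-likelihood test). By the rule it passed with all deposited barcodes (2.27) and without any one of 6 libraries, with values of 2.60 to 3.28: replicate 4 of Smad3+/+ and 6 and 7 of Smad3SmKO at 18 weeks, and replicate 2 of Smad3+/+ and both of Smad3SmKO at 10 weeks.

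Against endothelium by the rule, 7 of 9 members were higher in fibroblasts, where 19.3% of all genes were. In cells meeting exactly 1 rule it was 8 of 9, where 33.7% of genes were, with log2 differences of 4.48 (SE 0.29) for C3, 4.47 (SE 0.32) for C4b, 4.31 (SE 0.36) for C1s1 and 4.03 (SE 0.22) for C1ra. Serping1 was 3.40 higher (SE 0.21), Cfb 1.85 (SE 0.21) and Cd55 0.95 (SE 0.24, adjusted p = 7.05e-04). By the rule the Cd55 difference was 0.08 (SE 0.17, adjusted p = 0.769), so its call rests on how cells with fibroblast RNA were treated. In bulk sums of this kind, fewer expressing cells and less RNA per cell cannot be told apart.

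VSMCs were also compared with endothelium and leukocytes, where the numbers of members that differed stood near those of all genes. Against endothelium, in cells meeting exactly 1 rule, 7 of 9 members differed, where 65.8% of genes did in either direction. C1s1 (log2 2.33, SE 0.38), C1ra (1.48, SE 0.24) and Serping1 (0.44, SE 0.20, adjusted p = 0.0449) were higher in VSMCs. Cfb (-5.00, SE 0.36), Cd55 (-2.50, SE 0.29), C3 (-1.69, SE 0.33) and Cfd (-6.75, SE 1.32) were lower. By the rule, under which most of the endothelium also met the fibroblast rule, 8 of 9 differed, where 64.9% of genes did, and the first 3 had the opposite sign: C1ra was lower in VSMCs (-1.18, SE 0.16), as was Serping1 (-1.70, SE 0.19), and C1s1 differed by -0.42 (SE 0.25, adjusted p = 0.143 by edgeR's quasi-likelihood test). Against leukocytes 6 of 9 differed, where 79.8% of genes did, and the same 3 genes were higher in VSMCs: C1s1 by 4.22 (SE 0.43), Serping1 by 3.05 (SE 0.22) and C1ra by 2.28 (SE 0.24). By the rule 7 of 9 differed, where 80% of genes did, and these differences were 1.28 (SE 0.30), 0.40 (SE 0.20, adjusted p = 0.0621 by edgeR's quasi-likelihood test) and 0.49 (SE 0.18). C4b (-4.47, SE 0.29), Cfb (-4.09, SE 0.36) and C3 (-2.20, SE 0.30) were lower, and Cd55 differed by 0.02 (SE 0.36).

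RNA of lysed fibroblasts and droplets with more than 1 cell can carry fibroblast genes into other sums. As a gauge, each member was expressed as a percent of its own fibroblast level in the same library, beside the summed level of 5 fibroblast-restricted genes (Pdgfra, Lum, Dpt, Clec3b and Col14a1). In cells meeting exactly 1 rule, that sum stood at a median of 3.98% of its fibroblast level in VSMCs, 3.91% in endothelium and 2.12% in leukocytes. Col14a1 was not restricted in this way, at a median of 34.3% in VSMCs and 14.0% in leukocytes. It lay above the sum in 16 of 16 libraries of each. The other 4 genes stood between 0.967% (Clec3b) and 2.39% (Lum) in VSMCs, so Col14a1 raised the sum there. In VSMCs C1s1 stood at a median of 20.8%, C1ra at 18.7% and Serping1 at 11.8%, each above the sum in 16 of 16 libraries. Cd55 stood at 8.47% (above in 12 of 16), C4b at 2.81% (3 of 16), C3 at 1.00% (0 of 16), Cfb at 0.442% and C7 at 0.0879% (both 0 of 16). VSMC percents of C3, Cfb and C7 were under that of the fibroblast-restricted sum in every library. Beside the 4 genes other than Col14a1, the C4b median lay above each of theirs and the C3 median above that of Clec3b alone.

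In endothelium the members furthest above the sum were Cd55 (57.1%, above in 14 of 15 libraries), Cfb (25.6%, 12 of 15) and Serping1 (10.1%, 14 of 15). C1ra stood at 6.09% (11 of 15), C1s1 at 5.77% (11 of 15), C3 at 4.68% (9 of 15) and C4b at 3.54% (8 of 15). In leukocytes C4b stood at 63.4% (16 of 16), Cfb at 9.79% (13 of 16), Cd55 at 5.36% (13 of 16), C3 at 3.65% (14 of 16) and C1ra at 2.97% (12 of 16). Serping1 stood at 1.12% (1 of 16) and C1s1 at 0.957% (2 of 16).

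**Figure D2:**
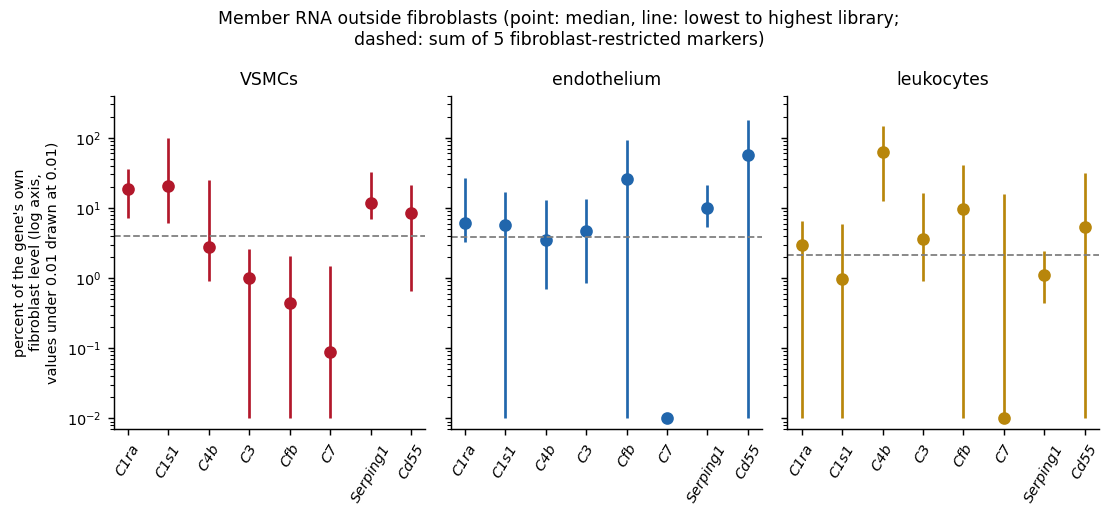
Level of 8 members in VSMCs, endothelium and leukocytes as a percent of their own fibroblast level in the same library (log axis, cells meeting exactly 1 rule, values under 0.01 drawn at 0.01). Each point is the median over libraries, each vertical line runs from the lowest to the highest library, and the dashed line is the median of the summed fibroblast-restricted genes. The whole ranges of C1s1, C1ra and Serping1 in VSMCs and of C4b in leukocytes lie above the dashed line, as do the medians of Cd55 and Cfb in endothelium.

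The median share of cells with a UMI was highest in fibroblasts for every member but Cfd. With each cell thinned to 2000 UMIs, the median share of cells with Serping1 was 84.0% in fibroblasts, 45.6% in endothelium, 30.2% in VSMCs and 9.80% in leukocytes, and 96.7%, 67.0%, 78.2% and 19.8% before thinning, so that endothelium and VSMCs changed places with depth. For C3 the thinned shares were 37.7% in fibroblasts, 13.2% in endothelium, 8.32% in leukocytes and 1.35% in VSMCs. C1s1 was found in 26.7% of fibroblasts, 8.86% of endothelium, 8.21% of VSMCs and 1.77% of leukocytes, and C1ra in 29.2%, 12.5%, 5.92% and 2.86%. These shares use the rule, under which endothelium includes cells that also met the fibroblast rule. In the thinned shares endothelium stood above VSMCs for Serping1, C1s1 and C1ra, unlike the levels in cells meeting exactly 1 rule. For C3 endothelium stood above VSMCs in both.

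Within the leukocytes, C4b and C3 levels differed in opposite directions between macrophage-marker and neutrophil-marker cells. Leukocytes meeting exactly 1 rule were divided by which of 3 marker lists led in them, a division made after values had been seen and therefore given without a test. Macrophage markers led in 1908 cells and neutrophil markers in 828, and 11 libraries held at least 10 of both. The macrophage-marker cells held 98.9% of the leukocyte C4b UMIs (2716 UMIs). Their C4b level had a median of 158 CPM (36.4 to 351 in 15 libraries), against a median of 0 (0 to 16.6 in 11 libraries) in neutrophil-marker cells, and it was higher in 11 of 11 libraries.

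C3 ran the other way. In neutrophil-marker cells its median was 135 CPM (21.2 to 255), against 20.8 CPM in the macrophage-marker cells of the same 11 libraries, and it was higher in the neutrophil-marker cells in 11 of 11. Over all libraries the neutrophil-marker cells held 35.8% of the leukocyte C3 UMIs (339 UMIs in 828 cells). The macrophage-marker cells held 60.9% (576 UMIs in 1908 cells). The share of cells with a C3 UMI was 25.5% in neutrophil-marker and 18.3% in macrophage-marker cells, a smaller gap than that in CPM. CPM scales by the UMIs of all genes, so it also depends on the UMIs per cell, and their part in the C3 difference was not tested. Serping1 had medians of 16.9 and 16.7 CPM in the neutrophil-marker and macrophage-marker cells and was higher in the former in 7 of 11 libraries. Cfb was higher in macrophage-marker cells in 8 of 11 libraries and lower in 1.

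**Figure D3:**
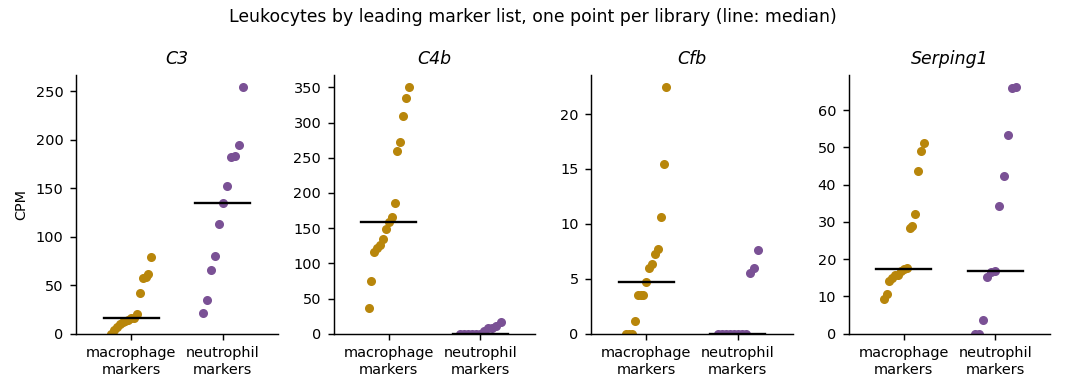
C3, C4b, Cfb and Serping1 in leukocytes led by macrophage markers and by neutrophil markers, in CPM of UMIs summed per library. Each point is a library: C4b points of macrophage-marker cells lie between 36.4 and 351 CPM while those of neutrophil-marker cells stay at or under 16.6, and C3 points are higher in the neutrophil-marker cells.

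VSMCs could be divided by Notch3 and Enpep against Ptprz1 and Tes, markers that the study tied to position along the aorta. Sums of 500 cells with at least 2 UMIs of Notch3 and Enpep, and more of these than of the other pair, were compared within 14 libraries with sums of 4594 cells of the opposite kind. Only 3 members passed the low-count filter. It keeps a gene that reaches a minimum level in enough sums of either kind, so a gene high in 1 kind alone can pass. C1s1 and C1ra may have passed mainly through the Notch3 and Enpep cells, so the number of members is no result. The 3 members were C1s1, C1ra and Serping1, all higher in the Notch3 and Enpep cells, where 13.2% of 5719 genes were. With no filter 3 of 9 members were higher, where 6.21% of 18336 genes were, 1 was lower, where 7.82% were, and 5 were not called. C1s1 had a median of 147 CPM (76.3 to 277) against 14.3 CPM (2.96 to 35.6), and the ranges did not overlap. C1ra had 70.2 CPM (27.9 to 130.5) against 15.6 CPM (5.86 to 46.4), and Serping1 307 CPM (125 to 558) against 144 CPM (78.4 to 267). The log2 differences were 3.37 for C1s1 (SE 0.18, adjusted p = 3.45e-13 by edgeR's quasi-likelihood test), 2.10 for C1ra (SE 0.15) and 0.93 for Serping1 (SE 0.10), higher in 14, 14 and 13 of 14 libraries.

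Cd55 went the other way, with 13 UMIs in the Notch3 and Enpep cells and 443 in the others, medians of 0 and 7.99 CPM, lower in 11 of 14 libraries and higher in 0. It fell under the low-count filter, and without the filter its log2 difference was -1.66 (SE 0.40, adjusted p = 5.27e-04 by edgeR's quasi-likelihood test). C3 and C4b had medians of 6.27 and 3.66 CPM in the Notch3 and Enpep cells, against 7.01 and 3.15 CPM. Of other listed complement genes, 6 were tested. Colec12, a scavenger receptor, and Cd59a, a surface inhibitor of the terminal pore, were lower, at -0.997 (SE 0.12) and -0.53 (SE 0.10).

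Other markers moved with this division. All 10 dissociation stress genes were higher in the Notch3 and Enpep cells, with a median log2 difference of 1.42, as were 2 of 5 fibroblast markers tested (1 was lower), while 1 of 3 pericyte markers tested was higher and 1 lower. Their part in the result was not tested. The share of VSMCs with the Notch3 and Enpep pattern also moved with digestion: at 18 weeks it was 11.49% to 62.5% (median 30.9%) in the 7 libraries digested for 30 min and 5.02% to 15.0% (median 5.83%) in the 5 digested for 60 min. The 10-week libraries, digested for 60 min, had 1.45% to 3.87%. C1s1 over all VSMCs followed that order, with means of 110 CPM at 30 min and 35.9 CPM at 60 min among 18-week libraries, and 13.1, 28.7, 13.5 and 13.4 CPM in the 4 libraries of 10 weeks. Digestion time, batch, the tracer label and, at 10 weeks, age cannot be told apart.

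Fibroblasts were divided by Pi16 and Dpp4, which mark adventitial progenitor-like fibroblasts. In 16 libraries, 27610 fibroblasts with at least 2 UMIs of the pair were compared with 5147 that had 0. Of 8 members tested, 7 were higher in the former, where 15.2% of 11451 genes were, and 1 was lower, where 20.8% were. Cd55 had a median of 101 CPM (37.8 to 198) against 34.6 CPM (18.4 to 48.2), and C7 37.3 CPM (22.6 to 74.8) against 13.7 CPM (0 to 32.4). Both were higher in 16 of 16 libraries, by 1.70 (SE 0.10) for Cd55 and 1.64 (SE 0.18) for C7 on the log2 scale.

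The other members that were higher were Cfb by 1.33 (SE 0.16), C3 by 1.01 (SE 0.14), Serping1 by 0.96 (SE 0.07), C1s1 by 0.87 (SE 0.10) and C1ra by 0.73 (SE 0.10). C3 had a median of 603 CPM against 270, Serping1 2008 CPM against 989, C1s1 190 CPM against 108 and C1ra 202 CPM against 134. These were higher in 14 (Cfb), 15 (C3), 16 (Serping1), 16 (C1s1) and 15 (C1ra) of 16 libraries.

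C4b was the one of the 8 that was lower in Pi16 and Dpp4 fibroblasts. Its medians were 207 CPM against 309 CPM, it was lower in 13 of 16 libraries, and the log2 difference was -0.56 (SE 0.19, adjusted p = 0.0228 by edgeR's quasi-likelihood test). Without Smad3+/+ 10 weeks replicate 2 it was -0.51 and did not pass (adjusted p = 0.0506). Of 19 other complement genes tested, 9 were also lower, among them Vtn (-4.71), an inhibitor of the terminal pore, the C1q chains C1qa (-2.61), C1qb (-2.44) and C1qc (-2.50), and Clu (-1.69), while C2 (0.74) and Cr1l (0.20) were higher. In the same comparison 8 of 8 VSMC markers, 7 of 7 leukocyte markers tested and 4 of 5 endothelial markers tested were lower in the Pi16 and Dpp4 cells. The part of such cells in the difference of C4b, or in those of the members that were higher, was not tested. Cfd, the ninth member, fell under the filter, with 57 UMIs in Pi16 and Dpp4 fibroblasts and 4815 in the others, and without the filter it was lower, where 9.49% of genes were, at -8.72 (SE 0.71, adjusted p = 3.82e-09 by edgeR's quasi-likelihood test). Of the 4873 Cfd UMIs of all fibroblasts, 4791 lay in 5 cells.

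Of all fibroblasts, between 64.2% and 92.4% were Pi16 and Dpp4 cells in 15 libraries. Smad3SmKO 18 weeks replicate 7 stood apart with 7.14%, 14 of its 196 fibroblasts. Its fibroblast levels of Cd55 (18.9 CPM), C7 (1.89), C4b (95.3) and Serping1 (859) were the lowest of the 16 libraries, whereas C3 was 1317 CPM, Cfb 64.6 and C1ra 260. The highest-to-lowest ratio over all 16 libraries was 32.7 for C7, 10.5 for Cfb, 8.94 for Cd55, 5.43 for C4b, 5.21 for C3, 3.04 for C1ra, 2.86 for C1s1 and 2.50 for Serping1. Without that library it was 3.00 for C7, 3.83 for Cd55, 4.24 for C4b and 1.81 for Serping1, and the same for the others named.

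Fibroblasts with interferon-induced RNA held more Cfb and C4b. In 15 libraries, 2929 fibroblasts with at least 5 UMIs of Ifit1, Ifit3 and Isg15 together were compared with 26324 that had 0 or 1. Cfb had a median of 56.5 CPM (12.9 to 201) against 39.6 CPM (11.7 to 113) and was higher in 15 of 15 libraries, by a log2 difference of 0.72 (SE 0.10, adjusted p = 9.12e-05 by edgeR's quasi-likelihood test). C4b had 259 CPM (170 to 803) against 211 CPM (64.5 to 535), was higher in 12 of 15, and differed by 0.44 (SE 0.11, adjusted p = 0.0164).

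Those were 2 of 8 members tested, where 3.56% of 11556 genes were higher. The other 6 had log2 differences between -0.18 and 0.05, with 0.00 (SE 0.07) for C1s1 and -0.01 (SE 0.10) for C3. C2, the classical counterpart of factor B, was higher by 0.71 (SE 0.16), among 19 other complement genes tested. Of leukocyte markers tested, 4 of 7 were higher in these cells and 7 of 8 VSMC markers were lower, and their part was not tested. Such fibroblasts made up 0.348% to 2.14% of fibroblasts at 10 weeks and 4.60% to 18.3% at 18 weeks, a difference that cannot be told apart from batch. The minimum of 5 UMIs was not scaled to depth. Median UMIs per fibroblast were 4318.5 to 5524 at 10 weeks and 6442 to 26326 at 18 weeks. Scaled to CPM, the listed interferon-induced genes summed to 83.8 to 186 at 10 weeks. At 18 weeks they summed to 190 to 485 (30 min) and 146 to 421 (60 min). The part of depth was not tested.

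**Figure D4:**
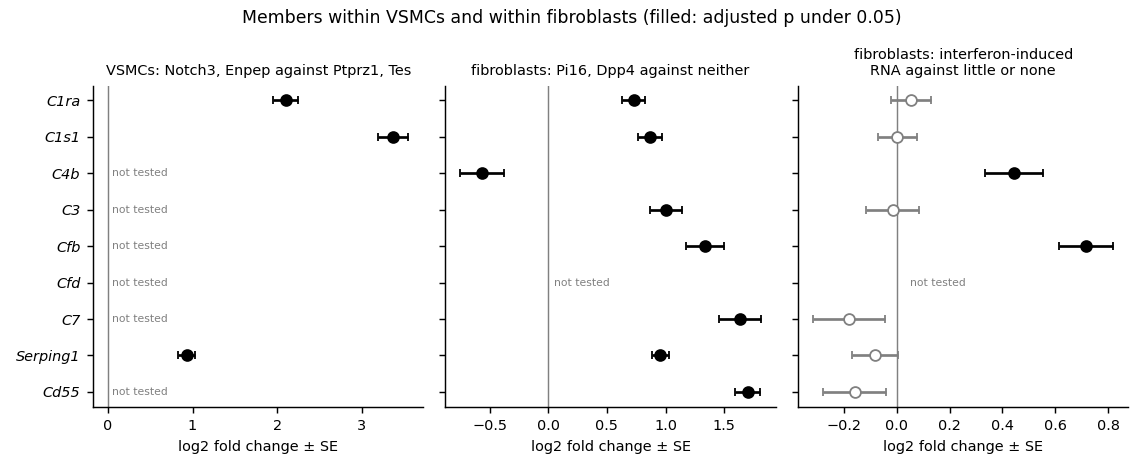
Log2 differences of the members with their standard errors in 3 comparisons within a type: VSMCs with Notch3 and Enpep against VSMCs with Ptprz1 and Tes, fibroblasts with Pi16 and Dpp4 against other fibroblasts, and fibroblasts with interferon-induced RNA against other fibroblasts. Filled points passed an adjusted p of 0.05: the 3 that passed the low-count filter in VSMCs, 8 of 8 for Pi16 and Dpp4 with C4b as the one below 0, and Cfb and C4b for interferon-induced RNA.

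The design asked whether the loss of Smad3 in VSMCs altered these RNAs in any cell type. No member passed the test in VSMCs, fibroblasts, endothelium or leukocytes, at 10 or at 18 weeks, or for the difference between the times. In VSMCs 0 of 6 members tested were called at 10 weeks, where 0% of 11852 genes were, 0 at 18 weeks, where 0.0422% were (5 genes), and 0 for the difference, where 0.00844% were (1 gene). In fibroblasts 0 of 9 were called, and edgeR called 0% of 14626 genes in each of the 3 comparisons. The same held in endothelium for 0 of 9 members (0% of 11683 genes in each) and in leukocytes for 0 of 7 (0% of 9770 in each). DESeq2 also called 0 members in each of these comparisons. At an unadjusted p of under 0.05 edgeR had 2 members in VSMCs at 18 weeks (C3 and Cd55), 1 for the difference in VSMCs (C3) and 0 elsewhere.

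Over all genes, the edgeR counts at an unadjusted p of under 0.05 at 10 weeks, at 18 weeks and for their difference were 220, 582 and 305 in VSMCs, 119, 363 and 130 in fibroblasts, 427, 362 and 407 in endothelium, and 272, 140 and 304 in leukocytes. DESeq2 called 1, 8 and 2 genes in VSMCs, 3, 3 and 1 in fibroblasts, 7, 0 and 6 in endothelium, and 4, 2 and 3 in leukocytes. None of the 5 genes that edgeR called in VSMCs at 18 weeks was on the list of other complement genes.

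Fibroblast C3 at 18 weeks was 498, 552, 768, 362 and 1451 CPM in the 5 Smad3+/+ libraries, and 319, 763 and 1666 CPM as the lowest, median and highest of the 7 Smad3SmKO libraries. At 10 weeks it was 461 and 337 CPM in Smad3+/+ and 362 and 447 CPM in Smad3SmKO libraries. The groups overlapped at both times, and the spread within each 18-week group exceeded the difference between them, which was 0.41 on the log2 scale (SE 0.37). It was 0.83 without Smad3+/+ replicate 1 and 0.20 without Smad3SmKO replicate 6, the extremes when libraries were left out in turn.

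Fibroblast C4b at 18 weeks was 220, 254, 451, 144 and 421 CPM in Smad3+/+ libraries, against 95.3, 212 and 518 CPM in Smad3SmKO libraries (lowest, median, highest), a log2 difference of 0.24 (SE 0.31). Serping1 in the same cells was 1850, 1498, 1851, 1201 and 1527 CPM against 859, 1708 and 2095 CPM, a difference of 0.15 (SE 0.22). Both sets overlapped. The remaining differences at 18 weeks were 0.12 (SE 0.33) for Cfb, 0.11 (SE 0.23) for C1ra, 0.10 (SE 0.23) for C1s1, -0.11 (SE 0.33) for Cd55, -0.20 (SE 0.45) for C7 and 2.31 (SE 2.68) for Cfd, which rests on the few cells described above. Their median over the 9 members was 0.12, against 0.01 over all genes tested.

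Fibroblast C4b at 10 weeks did not overlap between genotypes, at 166 and 166 CPM in Smad3+/+ and 193 and 179 CPM in Smad3SmKO libraries. The log2 difference was 0.16 (SE 0.50), and no gene was called at 10 weeks in fibroblasts. The other members overlapped there. Groups of 2 libraries often separate by chance, and the share of all genes that did so was not counted.

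In VSMCs the 2 members nearest the threshold were C3 and Cd55. C3 at 18 weeks was 3.77, 6.21, 7.06, 8.95 and 13.2 CPM in Smad3+/+ and 0, 6.45 and 39.4 CPM (lowest, median, highest) in Smad3SmKO libraries. The values at 25.8 and 39.4 CPM, of Smad3SmKO replicates 7 and 6, lay above every control, and 3 others lay below every control. The log2 difference was 1.28 (SE 0.56, adjusted p = 1 by edgeR's quasi-likelihood test), and without replicate 6 it was -0.48. Within batches it was lower in 2 of 4 and higher in 2 of 4. As percents of the fibroblast level, these VSMC levels of C3 lay under the fibroblast-restricted sum in every library, a sum that Col14a1 raised.

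Cd55 in VSMCs at 18 weeks was 5.66, 6.83, 22.6, 9.11 and 9.96 CPM in Smad3+/+ libraries, against 0.450, 3.56 and 7.72 CPM (lowest, median, highest) in Smad3SmKO libraries. The groups overlapped, with 4 of 7 Smad3SmKO libraries below every control. The difference was negative within each of 4 batches, at -4.89, -16.1, -3.27 and -3.64 CPM. On the log2 scale it was -1.19 (SE 0.54, adjusted p = 1 by edgeR's quasi-likelihood test), and ranged from -2.23 without Smad3SmKO replicate 6 to -0.89 without Smad3+/+ replicate 1.

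At 10 weeks Cd55 in VSMCs was 13.0 and 18.0 CPM in Smad3+/+ and 6.35 and 9.54 CPM in Smad3SmKO libraries, a log2 difference of -0.96 (SE 0.47, adjusted p = 1), and the values did not overlap. C1ra and Serping1 also did not overlap there, with 17.5 and 27.0 CPM against 14.3 and 13.6 CPM for C1ra, and 158 and 145 CPM against 133 and 137 CPM for Serping1. C3, C4b and C1s1 overlapped. With 2 libraries in each group such separation is frequent by chance. Its share over all genes was not counted, so it is no result about the members. The 18-week means of Cd55 were 10.8 ± 6.80 (n = 5) and 3.87 ± 2.87 CPM (n = 7) and rest on 176 and 188 UMIs, so a library with few VSMCs holds only a few molecules.

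**Figure D5:**
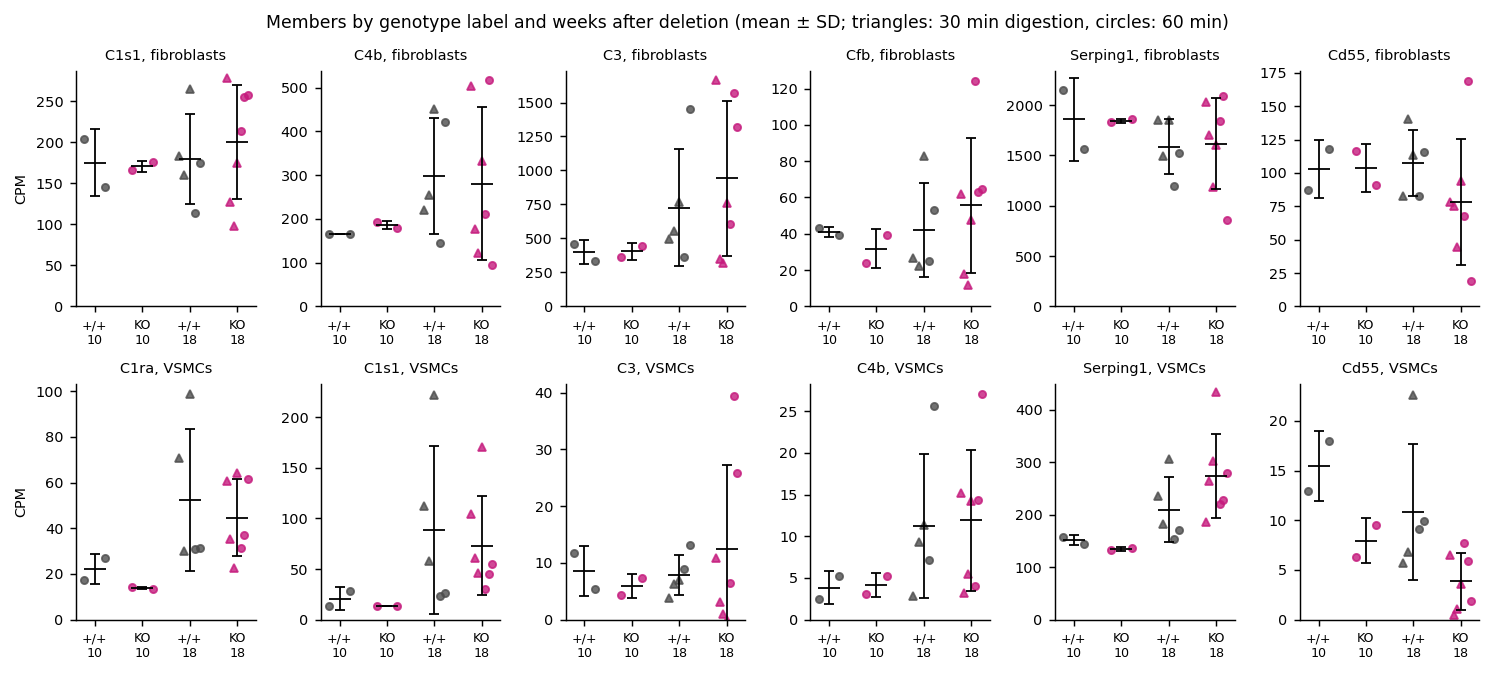
Levels in CPM per library of 6 members in fibroblasts (C1s1, C4b, C3, Cfb, Serping1 and Cd55) and 6 in VSMCs (C1ra, C1s1, C3, C4b, Serping1 and Cd55) by genotype and time, with mean ± SD of each group (n = 2, 2, 5 and 7), triangles for 30 min and circles for 60 min of digestion. The groups overlap in every panel at 18 weeks, and VSMC C1s1 is higher in the triangles of 18 weeks than in most circles.

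Other complement genes were also compared between types. Of a list of 46, 24 passed the filter. Against VSMCs 12 were higher and 4 lower in fibroblasts, where 37.5% and 33% of all genes were. Against leukocytes 10 were higher and 13 lower in fibroblasts, where 41.9% and 35.1% were. Clu, a chaperone that also inhibits the terminal complex, was 907 ± 282 CPM in VSMCs and 673 ± 920 CPM in fibroblasts (SD, n = 16), lower in fibroblasts, at -0.88 (SE 0.25). In leukocytes the C1q chains led, with 4047 ± 1728 CPM of C1qb, 3694 ± 1829 of C1qa and 2313 ± 985 of C1qc. Their log2 differences, fibroblasts minus leukocytes, were -8.11 (SE 0.50), -8.08 (SE 0.48) and -8.03 (SE 0.46). Colec12 was at 180 ± 51.5 CPM in VSMCs, 310 ± 77.6 CPM in fibroblasts and 212 ± 84.9 CPM in endothelium.

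Across libraries, each member had genes whose fibroblast level followed it closely, of 8012 compared over 16 libraries on the log2(CPM + 1) scale. These are descriptions, since the libraries share batches and the makeup of their fibroblasts. The likeness was closest for Cd55 and Clec3b (Pearson r = 0.975, Spearman rho = 0.885, and r = 0.886 in 14 libraries without the 2 farthest from the median of Cd55). Serping1 followed Pltp, a phospholipid carrier (r = 0.944, rho = 0.926, r = 0.900 without 2), and C4b followed Rgl1 (r = 0.873, rho = 0.809, r = 0.859 without 2). C3 followed Hp, the haptoglobin gene (r = 0.834, rho = 0.809, r = 0.747 without 2). For C7 and Entpd2 r was 0.966 and fell to 0.738 without 2 libraries, Smad3SmKO 18 weeks replicate 7 among them, with rho = 0.726.

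Cfb had the loosest likeness, to Psap (r = 0.716, rho = 0.691, r = 0.529 without 2) and to the interferon-induced chemokine gene Cxcl10 (r = 0.710, rho = 0.688, r = 0.510 without 2). Psap was also the first gene for C1ra (r = 0.776, rho = 0.741, r = 0.788 without 2) and for C1s1 (r = 0.816, rho = 0.835, r = 0.776 without 2). For Cfd the first gene was Polr2b (r = 0.846, rho = 0.714, r = 0.773 without 2), over sums that 15 cells dominate.

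Among fibroblasts of one library, levels of several members went together from cell to cell. The median r over libraries was 0.50 for C1ra with C1s1 and for C3 with C1s1, 0.48 for C1ra with Serping1 and 0.43 for C3 with C4b. Cd55 had lower values with these genes, 0.15 for C3, 0.09 for Serping1, 0.05 for C1s1, 0.04 for C1ra and -0.01 for C4b. Cells of a library share its depth and its free RNA, so these values describe the cells and test nothing.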

How the data were processed

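The authors made the deposited count matrices from 10x 3' v3 reads with Cell Ranger on mm10 with a GFP sequence added, and the deposited values are raw UMI counts per gene and barcode, not normalized. The submitters' processing notes name Cell Ranger 6 and Seurat 4, and the matrix headers name version 4.0.0. Cells were sorted for a DNA dye and against propidium iodide before capture.

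From these counts, barcodes were kept by the study's limits: a gene number above 600 and below 6000, a UMI total above 2000 and below 50000, and a mitochondrial share of UMIs below 25%. No doublet caller was run, so doublets remain within those limits. Cells were assigned by the 4 rules, and their UMIs were summed per library and type, or subset, where it held at least 10 cells. The sums were tested with edgeR 4.0.16 (R 4.3.3, limma 3.58.1) by its quasi-likelihood test, with TMM scaling, filterByExpr and Benjamini-Hochberg adjustment over all genes tested (threshold 0.05). Genotype fits held all 16 libraries with batch as a term. The batch without Smad3+/+ libraries thus added to the spread but not to the genotype difference, though its libraries are in the printed levels. Comparisons of types and subsets held library as a term, which takes out what the cells of a library share. Values are CPM of the same sums, and fold changes are on the log2 scale of the fit. Each library came from separately labelled aortic cells, and p-values measure the spread between these libraries. DESeq2 1.42.0, no low-count filter, no batch term, a digestion time at a time, cells meeting exactly 1 rule, all deposited barcodes, Smad3+/+ libraries alone, a UMI minimum raised by 1 and leaving out each library were tried as alternatives. Leaving the 2 farthest libraries out of a correlation was chosen after seeing the data. Python 3.11.15 (numpy 2.4.6, pandas 2.3.3, scipy 1.17.1, matplotlib 3.10.9) did the rest. The scripts were tested on simulated data.

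The 9 members and the gene lists were chosen with earlier results of these data known. Named genes were all 9 members in every comparison, other complement genes called for genotype, the 3 highest of them per cell type, and the 2 genes most like each member at a mean of at least 10 CPM in fibroblasts, of which not all are printed. Vtn, C1q, C2, Cr1l and other non-members outside this rule were named after their values were seen. Depth was 4528 to 21884 UMIs per kept cell (median of a library). VSMC and leukocyte sums are shallow in some libraries, down to 281192 and 142194 UMIs, where a single UMI is several CPM.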

Additional observations from a re-analysis of the deposited data

Results flagged for a closer look

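Of 36 groups of 4 to 10 libraries tested, 6 held a library whose gap to its nearest neighbour exceeded the 95% critical value of Dixon's test, and chance marks about 1 in 20 groups. Cd55 in VSMCs of Smad3+/+ 18 weeks replicate 3 was 22.6 CPM, with the next library at 9.96 CPM, and rests on 16 UMIs in 48 cells. Cfd in fibroblasts of Smad3SmKO 18 weeks replicate 1 was 257 CPM, with the next at 38.9 CPM, and in those of Smad3+/+ 18 weeks replicate 2 it was 33.4 CPM, with the next at 9.43 CPM. Cfd in VSMCs of Smad3SmKO 18 weeks replicate 1 was 4.33 CPM, from 2 UMIs in 59 cells, with every other library of the group at 0. C7 in VSMCs was 0.931 CPM in Smad3+/+ 18 weeks replicate 2 (3 UMIs in 259 cells, next 0.163 CPM) and 0.621 CPM in Smad3SmKO 18 weeks replicate 6 (2 UMIs, next 0.106 CPM).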

How the results depend on the processing

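No paired analysis was possible because the labels give no replicate numbers, though batch was a term of the genotype fits and library of the others. Members that passed between cell types or between fibroblast and VSMC subsets kept their direction in cells meeting exactly 1 rule and with all deposited barcodes, apart from the values given here. C4b (-0.50 against endothelium) and C7 (-1.18 against leukocytes) in VSMCs lost their calls in cells meeting exactly 1 rule. No alternative other than leaving off the low-count filter brought a member past the threshold for genotype. Few VSMCs and few endothelial cells per library limit the genotype comparisons, and UMIs of C7, Cfb and Cfd in VSMCs were too few to test.

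Without the filter C3 alone was called in each of 4 comparisons: VSMCs at 18 weeks 1.27 (adjusted p = 0.00391 by edgeR's quasi-likelihood test), the VSMC difference between times 1.86 (0.00766), leukocytes at 18 weeks 1.00 (0.0194) and their difference 2.08 (0.0156), or 1 member in each. With the filter, the VSMC difference of C3 at 18 weeks turned to -0.48 when Smad3SmKO replicate 6 was left out. Counts of genes called without the filter, at 10 weeks, 18 weeks and for the difference, became 51, 134 and 70 of 19090 in VSMCs. They became 38, 120 and 32 of 19601 in endothelium and 46, 71 and 81 of 19014 in leukocytes. With DESeq2 they became 1, 8 and 2 in VSMCs, 3, 3 and 1 in fibroblasts, 7 and 6 in endothelium (10 weeks and difference) and 4, 2 and 3 in leukocytes. In VSMCs at 18 weeks the count was 1 with no batch term and 1 with 60 min digestions alone, and for the difference 0 with no batch term. Fibroblasts against endothelium went from 4370 genes to 6857 in cells meeting exactly 1 rule and 2492 in Smad3+/+ libraries alone. Without the filter, VSMCs with Notch3 and Enpep against VSMCs with Ptprz1 and Tes went from 1476 genes to 2571, and fibroblasts with interferon-induced RNA against other fibroblasts from 692 to 1045.

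Some log2 differences turned over. At 18 weeks in VSMCs, C4b became -0.022 with no batch term and -0.082 with 60 min alone, C1s1 -0.32 with no batch term and -0.40 with 30 min alone, and C1ra 0.39 with 60 min alone. In fibroblasts at 18 weeks C4b became -0.049 with no batch term and -0.088 with 30 min alone, where C1ra became -0.29, C1s1 -0.26, Cfb -0.19 and Serping1 -0.10, and with 60 min alone C7 became 0.86 and Cd55 0.90. At 10 weeks in fibroblasts Serping1 became 0.0015 with DESeq2, 0.0080 in cells meeting exactly 1 rule and 0.011 with all barcodes, and Cd55 0.0040 in cells meeting exactly 1 rule. In cells meeting exactly 1 rule, VSMCs against endothelium turned over for C1ra (-1.18 to 1.48), C1s1 (-0.42 to 2.33), Serping1 (-1.70 to 0.44) and C7 (-6.32 to 3.66), VSMCs against leukocytes for Cd55 (-0.75 to 0.016), and endothelium against leukocytes for C3 (1.38 to -0.51) and C7 (2.39 to -4.83). Endothelium held 0 UMIs of C7 in these cells, so 3.66 and -4.83 measure no fold. There fewer cells with fibroblast RNA remained by construction. Cd55 in fibroblasts against endothelium became -0.076 in Smad3+/+ libraries alone. For interferon-induced RNA C1ra became -0.0093 and C1s1 -0.062 without the filter, and C1s1 -0.021 in cells meeting exactly 1 rule. The cause was not tested for the rest.

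Leaving out each library in turn, VSMC values at 10 weeks ranged from -0.50 to 0.87 for C4b, from -1.20 to 0.20 for C1s1 and from 0 to 1 for the count. At 18 weeks they ranged from -0.65 to 0.20 for C1ra, -0.44 to 0.52 for C1s1, -0.20 to 0.78 for C4b, -0.48 to 1.54 for C3 and 2 to 6 for the count, with 0 to 1 for the difference. In fibroblasts at 10 weeks the ranges were -0.073 to 0.28 for C7, -0.30 to 0.094 for C1ra, -0.19 to 0.16 for C1s1, -0.16 to 0.17 for Serping1, -0.15 to 0.19 for C3, -0.26 to 0.31 for Cd55 and -0.074 to 3.52 for Cfd. At 18 weeks they were -0.65 to 0.081 for C7, -0.54 to 0.039 for Cd55, -0.18 to 0.53 for Cfb, -0.28 to 0.45 for C1ra, -0.25 to 0.44 for C1s1, -0.079 to 0.56 for C4b and -0.089 to 0.36 for Serping1. Leukocytes at 18 weeks had 0 to 4 genes called. Cfd in fibroblasts against endothelium ranged from -1.25 to 0.70, and for interferon-induced RNA C1s1 ranged from -0.034 to 0.038, C3 from -0.077 to 0.037 and C1ra from -0.00037 to 0.082.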
